A study of Mus musculus with 6 samples.

Results

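Expression of the Ras genes Hras and Nras and of 6 regulators or effectors of Ras, namely Sos1, Nf1, Rasa1, Ptpn11, Cbl and Braf, was examined in c-Kit+ splenocytes of mice with acute myeloid leukaemia (AML) or myeloproliferative disease (MPN). The members were taken by gene symbol, 8 of the 24054 rows of a table of RSEM transcript levels (TPM, scaled to transcript length and to the same sum per library), and all 8 were among the 12223 genes tested. Poly-A RNA of 6 mice had been sequenced after selection with beads against CD117 (c-Kit), a receptor tyrosine kinase of blood progenitors, with 1 library per mouse. The AML group consisted of 3 moribund mice of genotype Flt3ITD/ITD;Dnmt3afl/- with MxCre, a Cre recombinase driven by the interferon-inducible Mx promoter. The MPN group consisted of 3 Flt3ITD/ITD;Dnmt3afl/fl control mice whose titles name no Cre. Both groups therefore carried Flt3-ITD, an activating internal tandem duplication in the receptor tyrosine kinase Flt3, on both alleles. The labels do not give ages, nor whether the floxed allele had been excised, and genotype, Cre and disease state differed together.

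Ras proteins are membrane-bound GTPases that are on when bound to GTP and off when bound to GDP. Activated receptors such as Flt3 and Kit recruit adaptors, the phosphatase SHP2 (encoded by Ptpn11) and the exchange factor Sos1, which loads Ras with GTP. GTPase-activating proteins such as neurofibromin (Nf1) and p120 RasGAP (Rasa1) switch Ras off, and the ubiquitin ligase Cbl marks activated receptors for degradation. GTP-bound Ras activates Raf kinases, Braf among them, and through MEK the kinase ERK, whose targets include inhibitors of the same pathway. In myeloid neoplasms this pathway is known for mutations that alter the proteins. Transcript levels, the quantity given here, do not show such mutations or the activity of the proteins.

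Total counts of reads were not analysed here, and relative depth, as the spacing of low RPKM values gives it, ran from 0.749 to 1.31 in AML and from 0.949 to 1.06 in MPN. In each library 11780 to 12034 genes reached 1 TPM. Dnmt3a, the gene whose alleles differ by label, stood at 11.5 to 13.5 TPM in AML and 29.3 to 33.9 TPM in MPN. Kit, the selection marker, was present in all libraries, at 99.2 to 129.7 TPM in AML and 144.7 to 152 TPM in MPN. By Xist, AML replicates 1 and 2 were female and the other 4 mice male, and per the file headers MPN replicate 1 was the single library of another sequencing run. In these bulk samples, fewer cells of a type and less RNA per cell cannot be told apart.

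Among the 8 genes, Cbl fell in AML, 0 rose, and 7 did not pass the test. The test was limma on log2(TPM + 1), two-sided, with Benjamini-Hochberg adjustment over all 12223 genes and a threshold of 0.05. The 1 of 8 amounts to 12.5%, against 30.1% of all tested genes that passed in either direction, 20.1% higher and 10.0% lower in AML. Mean levels were higher in AML for Hras, Nras, Rasa1 and Ptpn11 and lower for Sos1, Nf1, Cbl and Braf. The median log2 fold change was 0.01 over the 8 genes and 0.13 over all tested genes. The groups did not overlap for 4 of the 8, Hras, Nras, Rasa1 and Cbl, against 50.9% of all tested genes. An unadjusted p under 0.05 was reached by 1 of the 8 and by 5326 of all tested genes. For the 7 genes that did not pass, the lowest bound of a 95% interval of the fold change was 0.609, for Braf, and the highest 1.59, for Rasa1, and each gene's own interval included 1. Exact permutation tests of single genes gave p = 0.1 for the 4 genes without overlap, the smallest that 3 mice against 3 allow, 0.2 for Sos1 and Nf1, 0.4 for Ptpn11 and 0.6 for Braf.

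**Figure D1:**
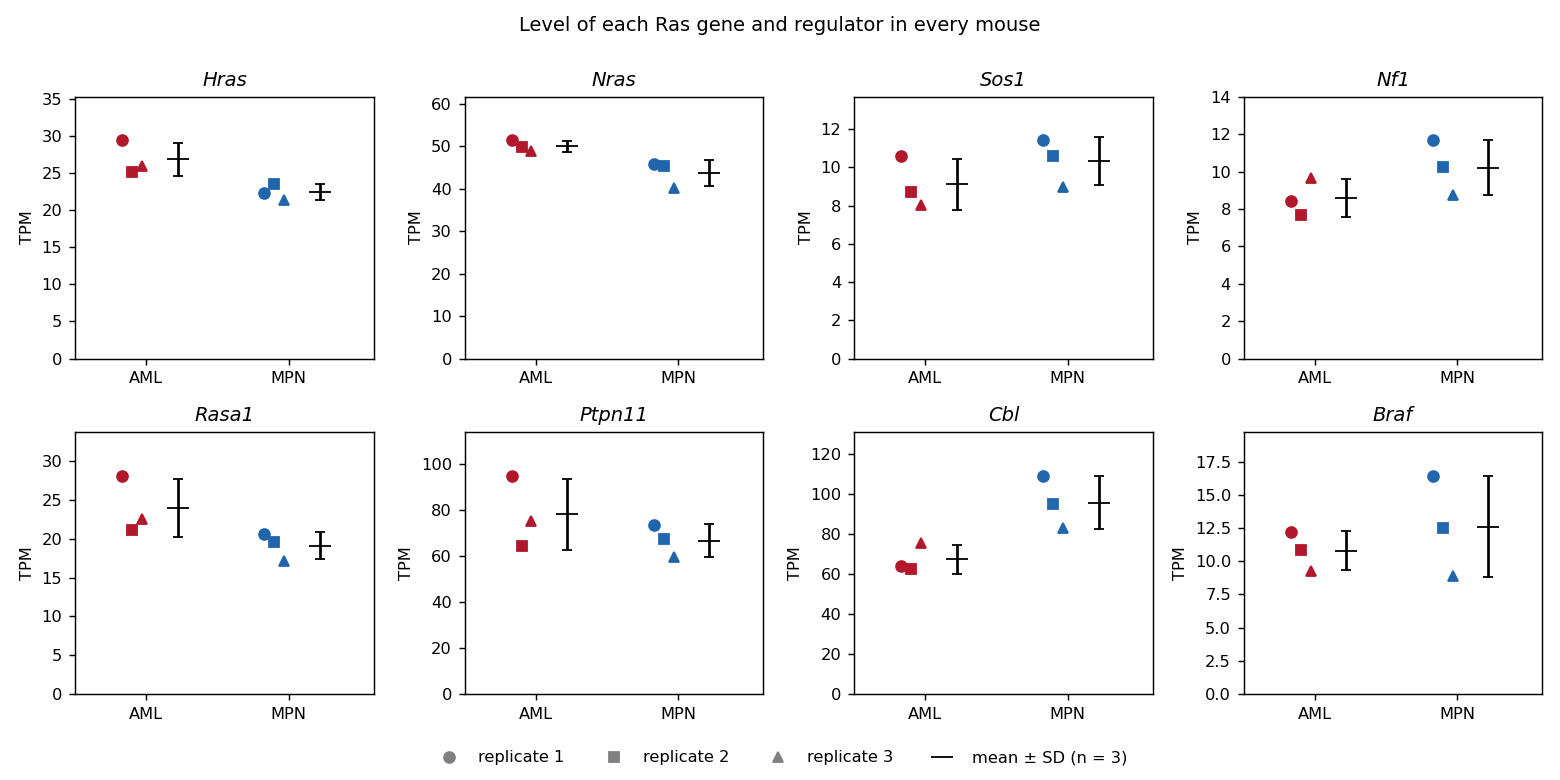
Level of each of the 8 genes in TPM (vertical axes, from 0, each with its own scale) in the AML (red, left) and MPN (blue, right) mice, with 1 point per mouse, shaped by replicate, and the mean ± SD of 3 mice beside the points. The groups are apart for Hras, Nras, Rasa1 and Cbl, and only for Cbl do all AML mice, at 62.6 to 75.6 TPM, lie below the MPN mice, at 82.8 to 109 TPM.

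The 2 Ras genes themselves were both a little higher in AML, without passing the test. Hras (ENSMUSG00000025499, chromosome 7, 141189105 to 141194005, minus strand, GRCm38) had 29.4, 25.2 and 25.9 TPM in AML mice 1 to 3, against 22.3, 23.6 and 21.4 TPM in MPN mice 1 to 3. Every AML mouse lay above every MPN mouse, and the gap between the groups was narrower than the spread within AML. The means were 26.8 ± 2.25 TPM in AML and 22.4 ± 1.10 TPM in MPN mice (SD, n = 3 each), a log2 fold change of 0.25 ± 0.13 (SE) with a limma adjusted p of 0.169. Nras (ENSMUSG00000027852, chromosome 3, 103058285 to 103067914, plus strand) had 51.4, 49.8 and 48.8 TPM in AML, against 45.7, 45.4 and 40.2 TPM in MPN. Its AML values were the tightest of the 8 genes, with a coefficient of variation of 2.60%, and again lay above all MPN values. Nras averaged 50.0 ± 1.30 TPM in AML and 43.8 ± 3.07 TPM in MPN, a log2 fold change of 0.19 ± 0.11 with an adjusted p of 0.217. The 95% interval of the AML over MPN ratio was 0.969 to 1.46 for Hras and 0.957 to 1.36 for Nras.

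The balance between the 2 Ras genes was much the same in all 6 mice. Hras made up 36.4%, 33.6% and 34.7% of the summed Hras and Nras TPM in AML mice, against 32.7%, 34.2% and 34.7% in MPN mice. The ranges overlapped, and the group means of 34.9% ± 1.41 in AML and 33.9% ± 1.01 in MPN (SD, n = 3 each) differed by less than the SD within AML. The sum itself was 80.8, 75.0 and 74.7 TPM in AML, above the 68.0, 68.9 and 61.6 TPM of the MPN mice. In RPKM the Hras share was lower, with means of 22.3% in AML and 21.6% in MPN, so its level depends on the measure. These ratios and sums were chosen after the levels had been seen and were not tested.

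The 250 bases before the RefSeq start of each gene were compared, and all 8 genes matched a RefSeq promoter (GRCm38.p6). Hras and Nras were higher in every AML mouse than in every MPN mouse, but so was Rasa1. The windows of the 2 Ras genes are given here. They are shown 5′ to 3′ on the gene's strand, with capitals for the GC box GGGCGG on either strand and for the E-box CACGTG, at chr7:141194005-141194254 (minus strand) for Hras and chr3:103058035-103058284 (plus strand) for Nras.
Hras: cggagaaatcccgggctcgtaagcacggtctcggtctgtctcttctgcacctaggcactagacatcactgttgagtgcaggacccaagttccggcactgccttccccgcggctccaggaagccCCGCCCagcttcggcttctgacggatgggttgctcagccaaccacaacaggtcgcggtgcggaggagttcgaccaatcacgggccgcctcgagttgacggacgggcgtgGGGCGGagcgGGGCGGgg
Nras: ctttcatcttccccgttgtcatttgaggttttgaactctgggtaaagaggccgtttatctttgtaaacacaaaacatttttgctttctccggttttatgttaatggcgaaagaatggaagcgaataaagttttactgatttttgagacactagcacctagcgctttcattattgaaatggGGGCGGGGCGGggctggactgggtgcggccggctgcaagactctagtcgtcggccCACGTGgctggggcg
Hras held 3 GC boxes, the nearest 2 bases from the start, and its window was 65.6% G or C. Nras held 2 overlapping GC boxes and 1 E-box, in a window that was 48.4% G or C. A GC box occurred in 32.7% of 32851 mouse promoters of this length and CACGTG in 6.02%. The median promoter was 52.4% G or C with 6 CpG dinucleotides, against 14 in Nras and 24 in Hras. A match describes the letters of the window and is not a measured binding site.

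Sos1, the exchange factor recruited to activated receptors, was among the 3 lowest of the 8 genes and did not differ detectably. Sos1 (ENSMUSG00000024241, chromosome 17, 80393751 to 80480453, minus strand) had 10.6, 8.68 and 8.05 TPM in AML, against 11.4, 10.6 and 8.96 TPM in MPN. The groups overlapped, with AML replicate 1 close to MPN replicate 2. The means of 9.10 ± 1.31 TPM in AML and 10.3 ± 1.25 TPM in MPN gave a log2 fold change of -0.17 ± 0.17 (limma adjusted p = 0.480, 95% interval of the ratio 0.677 to 1.17). Leaving out 1 mouse at a time moved it between -0.27, without AML replicate 1, and -0.09, without AML replicate 3.

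The GTPase-activating proteins Nf1 and Rasa1 stood on opposite sides of the MPN level, and neither passed. Nf1 (ENSMUSG00000020716, chromosome 11, 79339693 to 79581612, plus strand) had 8.43, 7.68 and 9.67 TPM in AML, against 11.7, 10.2 and 8.75 TPM in MPN. AML replicate 3 lay above MPN replicate 3, so the groups overlapped. The Nf1 means were 8.59 ± 1.0 TPM in AML and 10.2 ± 1.47 TPM in MPN, a log2 fold change of -0.22 ± 0.17 (limma adjusted p = 0.346), or -0.13 without MPN replicate 1. Rasa1 (ENSMUSG00000021549, chromosome 13, 85214780 to 85289130, minus strand) had 28.2, 21.1 and 22.6 TPM in AML, against 20.6, 19.6 and 17.2 TPM in MPN. AML replicate 1 stood highest, and the lowest AML mouse was barely above the highest MPN mouse. Rasa1 averaged 24.0 ± 3.71 TPM in AML and 19.1 ± 1.74 TPM in MPN, a log2 fold change of 0.30 ± 0.16 (limma adjusted p = 0.173), the largest upward difference among the 8. Without AML replicate 1 it was 0.19. The ratio of Rasa1 to Nf1 was 3.34, 2.75 and 2.34 in AML mice, against 1.76, 1.92 and 1.96 in MPN mice, without overlap. This ratio was likewise chosen after its values had been seen and was not tested.

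Ptpn11, which encodes SHP2, a phosphatase required for full Ras activation by receptors, had the highest mean TPM of the 8 genes in AML. In RPKM its AML mean of 18.2 lay below those of Nras, at 40.4, and Cbl, at 27.1. Ptpn11 (ENSMUSG00000043733, chromosome 5, 121130533 to 121191397, minus strand) had 94.8, 64.2 and 75.1 TPM in AML, against 73.3, 67.3 and 59.3 TPM in MPN. The AML mice were spread widely, with a coefficient of variation of 19.9%, and overlapped the MPN mice. Its means of 78.0 ± 15.5 TPM in AML and 66.6 ± 7.02 TPM in MPN gave a log2 fold change of 0.21 ± 0.16 (limma adjusted p = 0.351, 95% interval of the ratio 0.889 to 1.51). Single mice moved this value widely, to 0.064 without AML replicate 1, 0.34 without AML replicate 2 and 0.13 without MPN replicate 3.

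Cbl, the ubiquitin ligase that acts on activated receptor tyrosine kinases, Flt3 and Kit among them, was the gene that passed. Cbl (ENSMUSG00000034342, chromosome 9, 44142976 to 44234049, minus strand) had 63.8, 62.6 and 75.6 TPM in AML, against 109, 95.1 and 82.8 TPM in MPN. All AML mice lay below all MPN mice, with AML replicate 3 and MPN replicate 3 nearest to each other. Cbl fell to 67.3 ± 7.16 TPM in AML, against 95.7 ± 13.2 TPM in MPN mice (SD, n = 3 each), so that the mean in AML was 70.4% of that in MPN. The difference was -0.50 ± 0.14 (SE) on the log2 scale, with a limma adjusted p of 0.0332 and a 95% interval of the ratio of 0.566 to 0.887. A larger absolute log2 fold change was found in 36.6% of all tested genes. In the RPKM table, Cbl had 25.1, 25.9 and 30.3 RPKM in AML, against 41.9, 37.0 and 35.6 RPKM in MPN (log2 fold change -0.48, limma adjusted p = 0.0218). Leaving out AML replicate 1 or 2 ended the call (adjusted p = 0.0660 and 0.0909), as did leaving out MPN replicate 1 or 2 (0.113 and 0.101) and a term for sex (log2 fold change -0.33, adjusted p = 0.350), and the difference kept its sign in each of these fits.

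Summed markers of neutrophils, macrophages, T and NK cells, B cells and dendritic cells were lower in AML, as was Cbl. The summed level of 7 neutrophil markers, all of which fell, was 6766 to 20509 TPM in AML and 30308 to 48078 TPM in MPN. Of 8 macrophage markers 7 fell, with sums of 72.0 to 157 TPM in AML and 360 to 457 TPM in MPN. Of 8 T and NK cell markers 7 fell, with sums of 3.61 to 6.0 TPM in AML and 75.9 to 103 TPM in MPN, but 6 of the 7 were under 1 TPM in every AML mouse and were tested because of their MPN level. The groups were apart for each of these sums, as they were for B cell and dendritic cell markers. Of 5 tested B cell markers 4 fell, with sums over 6 markers of 27.2 to 36.6 TPM in AML and 76.6 to 101.3 TPM in MPN. Most of the AML sum was Cd79b, which did not pass, at 26.05 to 33.9 TPM in AML and 26.9 to 38.2 TPM in MPN. Of 6 dendritic cell markers 3 fell, with sums of 65.7 to 474 TPM in AML and 933 to 1176 TPM in MPN. Of 6 erythroid markers 1 fell, with sums of 4.04 to 202 TPM in AML that overlapped the 152 to 350 TPM in MPN. The same limit holds for 3 of the B cell markers, 1 macrophage and 1 dendritic cell marker that fell, so these counts describe the libraries and support nothing. Progenitor markers moved the other way. Of 8 progenitor markers 7 rose, with sums of 935 to 1188 TPM in AML and 417 to 506.4 TPM in MPN. Of 3 tested mast cell markers 1 rose, with sums over 6 markers of 54.5 to 112 TPM in AML that overlapped the 35.7 to 55.5 TPM in MPN. Cpa3 was the marker that rose, and Hdc and Ms4a2 did not pass. Cma1 and Tpsb2, too low to be tested, were lower in AML, and Fcer1a, also untested, overlapped. No marker of these lists was listed at 0 in all AML mice, although Pax5, which defines B cells, was at most 0.09 TPM there. In MPN, Pax5 was also low, at 0.66 to 1.24 TPM, and it was not tested. The part of these cells in the Cbl difference was not tested.

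The Cbl promoter window is shown because it is the gene that passed, at chr9:44234047-44234296 on the minus strand, with capitals for the GC box on either strand.
Cbl: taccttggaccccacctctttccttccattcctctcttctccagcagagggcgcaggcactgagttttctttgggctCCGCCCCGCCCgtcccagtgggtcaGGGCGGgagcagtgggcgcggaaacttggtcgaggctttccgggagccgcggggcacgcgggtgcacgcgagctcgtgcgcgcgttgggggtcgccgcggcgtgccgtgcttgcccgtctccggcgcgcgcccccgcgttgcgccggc
It held 33 CpG dinucleotides, the most among the 8 windows, was 71.6% G or C, and had 3 GC boxes, of which 2 overlapped. Of the other windows, Ptpn11 and Braf held TGACGTCA, the cAMP response element, 1 and 2 times, against 1.55% of all promoters with at least 1. The ETS core CCGGAAG lay in the Ptpn11 window, against 6.91% of all promoters, and also in those of Nf1 and Rasa1. For these last genes RefSeq places the start elsewhere than the GENCODE positions given above, so that the Nf1 window lies mostly inside the GENCODE gene and the Rasa1 window away from its GENCODE start. Both strands were searched for each motif, and no motif was shared by all 8 windows.

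Braf, the Raf kinase that passes the signal of GTP-bound Ras to MEK, varied more within MPN than between the groups. Braf (ENSMUSG00000002413, chromosome 6, 39603237 to 39725463, minus strand) had 12.2, 10.9 and 9.29 TPM in AML, against 16.4, 12.5 and 8.88 TPM in MPN. MPN replicate 3 was the lowest of all 6 mice and MPN replicate 1 the highest, so the AML mice lay inside the MPN range. The means of 10.8 ± 1.46 TPM in AML and 12.6 ± 3.78 TPM in MPN gave a log2 fold change of -0.18 ± 0.23 (limma adjusted p = 0.585, 95% interval of the ratio 0.609 to 1.29). The coefficient of variation within MPN was 30.0%, the widest of the 8 genes in either group. Without MPN replicate 1, the library of the other sequencing run, the log2 fold change turned to 0.023 (adjusted p = 0.952).

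**Figure D2:**
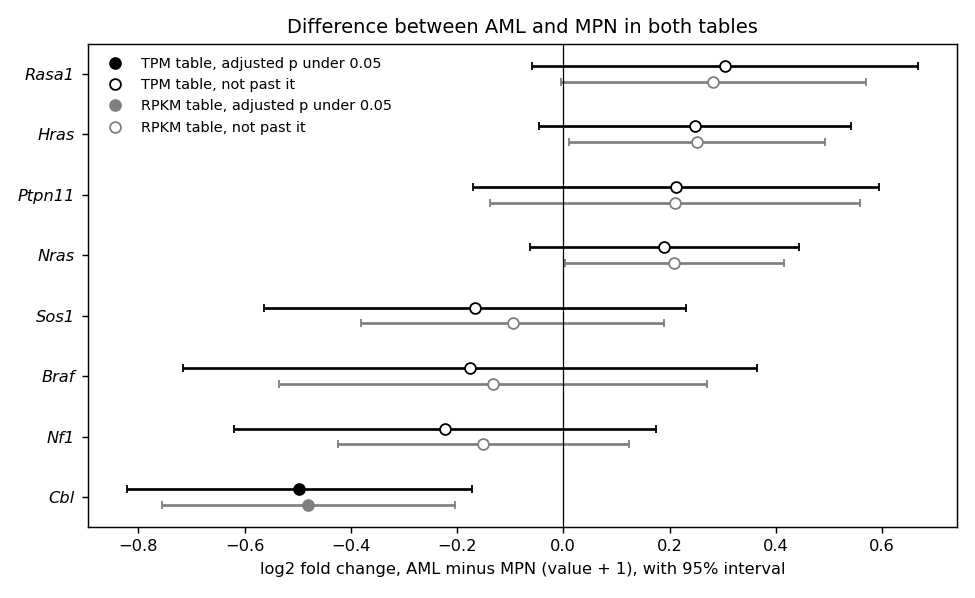
Log2 fold change, AML minus MPN, of the 8 genes with its 95% interval (horizontal axis, on the log2(value + 1) scale), from the TPM table (black) and the RPKM table (grey), with filled points for an adjusted p under 0.05. Cbl, at -0.50 in TPM and -0.48 in RPKM, is the gene past the threshold in both tables, and each gene has the same sign in both.

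The second table of the authors, in RPKM, gave the same 4 genes higher and the same 4 lower in AML. Of the 8 genes, Cbl passed there as well, and the other adjusted p ran from 0.101 for Hras to 0.572 for Braf. The intervals of Hras and Nras in RPKM lay just above 0, with adjusted p of 0.101 and 0.108. Identical stretches of 75 bases or more shared with transcripts of other genes were found for Cbl alone, 86 bases or 0.756% of its transcript sequence, in common with Prdm2.

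Levels per transcript length differed widely among the 8 genes. In AML the order by mean TPM was Ptpn11, Cbl, Nras, Hras, Rasa1, Braf, Sos1 and Nf1. In MPN it was Cbl, Ptpn11, Nras, Hras, Rasa1, Braf, Sos1 and Nf1, so that in TPM, though not in RPKM, Cbl and Ptpn11 exchanged places. In AML the ranges of Ptpn11 and Cbl overlapped, as did those of Hras and Rasa1, and in both groups Braf, Sos1 and Nf1 overlapped their neighbours. In MPN the top 5 genes stood apart from each other. The ratio of Cbl to Ptpn11 was 0.673, 0.975 and 1.01 in AML mice, against 1.49, 1.41 and 1.40 in MPN mice, without overlap. Cbl relative to Nras was 1.24, 1.26 and 1.55 in AML and 2.39, 2.10 and 2.06 in MPN. Both ratios were chosen after the levels had been seen and were not tested. By mean TPM over all 6 mice, Cbl stood at the 84.1st percentile of tested genes, Ptpn11 at 81.8, Nras at 70.9, Hras at 51.5, Rasa1 at 47.4, Braf at 30.8, Sos1 at 27.1 and Nf1 at 26.6. The order depended on the measure. In RPKM, Cbl averaged 27.1 in AML and 38.2 in MPN, above Ptpn11 with 18.2 and 15.4. Nras led in AML there, at 40.4 RPKM, and stood between Cbl and Ptpn11 in MPN, at 34.8 RPKM.

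The extremes of the 8 genes were shared out unevenly among the mice. AML replicate 1 was the highest of all 6 mice for Hras, Nras, Rasa1 and Ptpn11. MPN replicate 1 was the highest for Sos1, Nf1, Cbl and Braf, and MPN replicate 3 the lowest for Hras, Nras, Rasa1, Ptpn11 and Braf. AML replicate 1 was also the deepest library, at a relative depth of 1.31, and MPN replicate 1 was the library of the other run. Within AML, replicate 1 had the lowest marker sums of neutrophils (6766 TPM), macrophages (72.0 TPM), dendritic cells (65.7 TPM) and T and NK cells (3.61 TPM). Its sums of progenitor (1188 TPM) and erythroid markers (202 TPM) were the highest of the AML mice. The part of depth, run and cell content in the extremes of the 8 genes was not tested. Over the 6 libraries, which share their group structure, Pearson's r of log2(TPM + 1) was 0.89 between Hras and Nras, 0.95 between Rasa1 and Ptpn11, 0.92 between Nf1 and Cbl and -0.73 between Hras and Cbl, given as a description. After the group means were removed, r was 0.62, 0.98, 0.98 and 0.04 for these pairs, in the same order.

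For each of the 8 genes, the 2 named genes with the most similar pattern over the 6 libraries were looked up, by Pearson's r of log2(TPM + 1) and with a mean of at least 5 TPM. Being the highest among all such genes over only 6 points, these r are descriptions with no test. Cbl was most like Klf3, which encodes a Krüppel-like transcription factor (r = 0.991), and Klf3 fell as well (log2 fold change -0.65, limma adjusted p = 0.0165). Its second neighbour was Wdr37 (r = 0.989). Hras was nearest to Gtf2h5 and Car13, Nras to Gcfc2 and Trmt5, Sos1 to Tubgcp5 and Ubac1, and Nf1 to Eif4g3 and Pkd1. Rasa1 was nearest to Setd6 and Dnajb6, Ptpn11 to Avl9 and Nfrkb, and Braf to Hook3 and Mbd5, whose r of 0.977 and 0.975 were the lowest of the 16.

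The other genes of the pathway were counted by role in 8 lists written from textbook roles, with earlier results of these data known. Of their 80 genes besides the 8 members, 73 were tested, of which 11 rose, 7 fell and 55 did not pass. The share of 24.7% compares with 30.1% of all tested genes, and the median log2 fold change was 0.05, against 0.13 for all. With the 8 members included, 7.14% of the Ras and Ras-like GTPases, 28.6% of the exchange factors and 20% of the GTPase-activating proteins passed. The share was 18.2% for the receptor adaptors and phosphatases and 33.3% for the ubiquitin ligases and adaptors. It was 21.4% for Raf, MEK, ERK and scaffolds and 11.1% for Ras lipid processing and transport. Of the 11 that rose, 6 belonged to the list of ERK feedback and target genes. Without that list, 5 of 63 rose and 7 fell, or 19%. With a term for sex, which compares the male AML replicate 3 with the MPN mice, the calls of Mras and Rasgrp2 remained out of these 18.

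**Figure D3:**
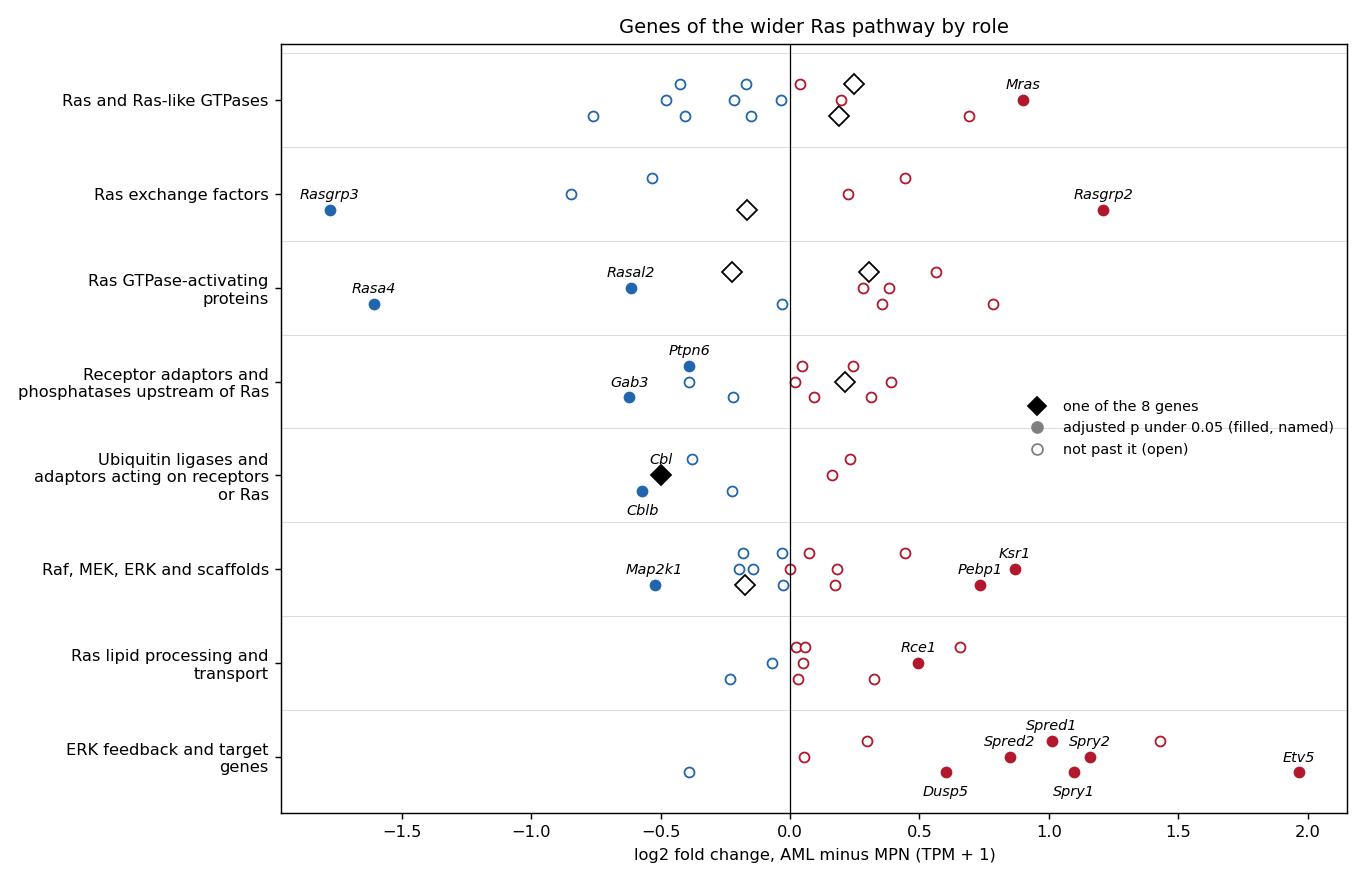
Log2 fold change, AML minus MPN, on the log2(TPM + 1) scale (horizontal axis) of every tested gene of the 8 role lists (rows), with diamonds for the 8 genes described first, filled symbols and names for an adjusted p under 0.05, and vertical offsets only to separate points. The filled points of the ERK feedback and target genes all lie right of 0, between 0.60 and 1.97, while the GTPase-activating proteins, adaptors and ubiquitin ligases have filled points only left of 0.

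Among Ras and Ras-like GTPases, Mras alone passed of the 14 tested, and the list's median was -0.09. Mras, a Ras relative that acts with Shoc2 on Raf, had 7.99, 8.56 and 13.9 TPM in AML, against 5.17, 5.49 and 3.92 TPM in MPN mice (log2 fold change 0.90 ± 0.24, limma adjusted p = 0.0273). The groups were apart, with AML replicate 3 highest. This call ended without MPN replicate 1, 2 or 3 (adjusted p = 0.0649, 0.0644 and 0.0875) and without the filter (0.0567). Rap1b, the most abundant gene of the list that did not pass, averaged 235 ± 15.9 TPM in AML and 240 ± 7.67 TPM in MPN mice (adjusted p = 0.816).

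The exchange factors held the largest rise and the largest fall among the 7 lists other than the ERK feedback and target genes. Rasgrp2, a calcium- and diacylglycerol-responsive exchange factor that acts mainly on Rap proteins, had 106, 117 and 87.6 TPM in AML, against 55.5, 36.4 and 41.4 TPM in MPN. It rose by 1.21 ± 0.18 on the log2 scale (limma adjusted p = 0.00351), and the call held whichever mouse was left out. Rasgrp3, an exchange factor for Ras and Rap, had 5.92, 14.1 and 19.99 TPM in AML, against 44.5, 55.0 and 33.7 TPM in MPN mice (log2 fold change -1.78 ± 0.39, adjusted p = 0.0149). All AML mice lay below all MPN mice, and the call ended without MPN replicate 2 (adjusted p = 0.0545). Of the 7 tested, the other 5, Sos1 among them, did not pass. Rasgrp4, known from mast cells and myeloid cells, averaged 52.4 ± 30.0 TPM in AML and 84.1 ± 13.1 TPM in MPN mice (adjusted p = 0.164).

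Among 10 GTPase-activating proteins, 2 fell and 8, Nf1 and Rasa1 among them, did not pass. Rasa4, a calcium-regulated GTPase-activating protein, had 21.9, 52.5 and 41.3 TPM in AML, against 108, 114 and 116 TPM in MPN. It fell by 1.61 on the log2 scale (SE 0.28, limma adjusted p = 0.00646), and the call held whichever mouse was left out. Rasal2 was low throughout and averaged 1.63 ± 0.33 TPM in AML and 3.04 ± 0.66 TPM in MPN mice (log2 fold change -0.61, adjusted p = 0.0491). Its call ended without each mouse except AML replicate 1, with an adjusted p between 0.0838 and 0.122, and also with pseudocounts of 0.1 and 5 (0.0543 and 0.0532) and without the filter (0.0666). Rasal2 was below the filter in the RPKM table. Rasa3 averaged 73.0 ± 9.81 TPM in AML and 56.9 ± 8.82 TPM in MPN and did not pass (adjusted p = 0.123).

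Of 11 receptor adaptors and phosphatases, 2 fell, and Ptpn11 was among the 9 that did not pass. Ptpn6, which encodes SHP-1, a phosphatase that dampens receptor signalling and is the closest relative of SHP2, had 239, 233 and 242 TPM in AML, against 285, 292 and 363 TPM in MPN. The log2 fold change was -0.39 ± 0.12 (limma adjusted p = 0.0451). Gab3, a docking protein, averaged 2.70 ± 0.23 TPM in AML and 4.75 ± 1.0 TPM in MPN mice (log2 fold change -0.62, adjusted p = 0.0410). The Ptpn6 call ended whichever mouse was left out (adjusted p of 0.0696 to 0.107), in the RPKM table (0.0800), under median scaling (0.0638), without the trend (0.0743), without the filter (0.0564) and with the filter at 5 TPM (0.0502). That of Gab3, which was below the filter in the RPKM table, ended without each mouse other than MPN replicate 3 (0.0636 to 0.138) and without the filter (0.0747). Inpp5d, which encodes the lipid phosphatase SHIP-1, averaged 161 ± 42.3 TPM in AML and 208 ± 21.01 TPM in MPN mice (adjusted p = 0.148).

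Of the 6 tested ubiquitin ligases and adaptors, Cbl and its paralog Cblb fell and 4 did not pass. Cblb had 13.7, 12.8 and 13.0 TPM in AML, against 22.1, 19.4 and 18.8 TPM in MPN. The AML mice were close together and all below the MPN mice, and Cblb fell by 0.57 on the log2 scale (SE 0.13, limma adjusted p = 0.0179). Leaving out AML replicate 2 ended that call (adjusted p = 0.0508), as did leaving out MPN replicate 1 or 2 (0.0776 and 0.0738). Sh2b3, which encodes the adaptor LNK, averaged 66.7 ± 17.0 TPM in AML and 85.6 ± 8.05 TPM in MPN mice (adjusted p = 0.149).

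In the list of Raf, MEK, ERK and scaffolds, 2 of 14 rose, 1 fell and 11, Braf among them, did not pass. Pebp1, which encodes the Raf kinase inhibitor protein, had 454, 434 and 334 TPM in AML, against 258, 237 and 234 TPM in MPN mice (log2 fold change 0.73 ± 0.14, limma adjusted p = 0.00797), and the call held whichever mouse was left out. Ksr1, a scaffold that binds Raf, MEK and ERK, averaged 16.1 ± 4.56 TPM in AML and 8.19 ± 0.96 TPM in MPN mice (0.87 ± 0.21, adjusted p = 0.0215). Map2k1, which encodes MEK1, had 57.7, 69.0 and 79.0 TPM in AML, against 89.5, 100.3 and 105 TPM in MPN mice (-0.52 ± 0.14, adjusted p = 0.0295). For each of the 3 genes the groups were apart. The Ksr1 call ended without MPN replicate 1, 2 or 3 (adjusted p = 0.0509, 0.0864 and 0.0600), and that of Map2k1 without AML replicate 2 (0.0665) or MPN replicate 1, 2 or 3 (0.0542, 0.0979 and 0.0910). Rps6ka1, an ERK-activated kinase, averaged 164 ± 19.4 TPM in AML and 186 ± 12.8 TPM in MPN mice (adjusted p = 0.286).

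Of 9 genes of Ras lipid processing and transport, 1 rose and 8 did not pass. Rce1, the protease that trims the lipid-modified end of Ras, had 31.8, 30.9 and 35.0 TPM in AML, against 22.0, 23.4 and 22.9 TPM in MPN mice (log2 fold change 0.50 ± 0.12, limma adjusted p = 0.0190). The groups were apart by more than the spread within either. Leaving out AML replicate 3 ended the call (adjusted p = 0.0541), as did leaving out MPN replicate 1 or 2 (0.0746 and 0.0737). Golga7, a partner of the enzyme that palmitoylates Hras and Nras, averaged 114 ± 6.59 TPM in AML and 110 ± 2.81 TPM in MPN mice (adjusted p = 0.722).

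Downstream, 10 of 14 ERK feedback and target genes were tested, since Dusp4, Spry4, Etv4 and Fosl1 did not reach the filter. Of the 10, 6 rose, 0 fell and 4 did not pass. The share of 60% compares with 20.1% of all tested genes that rose, and the median log2 fold change of the list was 0.93. The list was chosen with earlier results of these data known, so this share is a description and no independent support. Spry1 reached the filter through the AML mice alone, where it is high, and without it 5 of 9 rose. Etv5, an ETS transcription factor gene induced by ERK, had 16.8, 4.28 and 9.58 TPM in AML, against 1.47, 1.18 and 2.09 TPM in MPN mice (log2 fold change 1.97 ± 0.41, limma adjusted p = 0.0124), and the call held whichever mouse was left out. Spry2, one of the Sprouty inhibitors of Ras signalling, had 7.75, 4.78 and 3.14 TPM in AML, against 2.09, 1.43 and 1.5 TPM in MPN mice (1.16 ± 0.28, adjusted p = 0.0211). All AML mice lay above all MPN mice for both genes, with AML replicate 1 highest. Spry1 averaged 3.10 ± 1.28 TPM in AML and 0.863 ± 0.084 TPM in MPN mice (1.10 ± 0.23, adjusted p = 0.0131). Since all 3 MPN values were under 1 TPM, Spry1 was tested because of its AML level, and its call adds no support to the count. Spred1, which brings neurofibromin to the membrane, averaged 17.0 ± 6.36 TPM in AML and 7.60 ± 0.78 TPM in MPN mice (1.01 ± 0.25, adjusted p = 0.0212). The other genes that rose, named after their values were seen, were Spred2 (log2 fold change 0.85) and Dusp5 (0.60), which encodes a nuclear ERK phosphatase. Ier3, an immediate early gene, had 48.5, 10.1 and 26.2 TPM in AML, against 7.73, 8.20 and 8.49 TPM in MPN, and did not pass (adjusted p = 0.0586). Also not past the threshold, and likewise named after their values were seen, were Dusp6, Phlda1 and Spred3. Their log2 fold changes were 0.30, 0.052 and -0.39 (limma adjusted p = 0.395, 0.877 and 0.0888). Spred3 was lower in every AML mouse than in every MPN mouse, and it passed as lower under 4 alternative settings. These were median scaling, quantile normalization, no trend and array weights.

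The height of these downstream genes differed among the AML mice. Relative to the MPN mean, the median log2 level over the 10 genes was 1.5 in AML replicate 1, 0.50 in AML replicate 2 and 0.65 in AML replicate 3, and 8 of the 10 genes were highest in AML replicate 1. The number that rose was 1 without MPN replicate 2, 3 without MPN replicate 3, 4 without MPN replicate 1 and 5 to 7 without 1 of the AML mice. Without MPN replicate 2 the gene left was Etv5, and the adjusted p of Spry1, Spry2 and Spred1 were 0.0509, 0.0755 and 0.0740. Without MPN replicate 3 those of Spry2 and Spred1 were 0.0737 and 0.0730. The Dusp5 call ended without MPN replicate 1 or 2 (adjusted p = 0.0517 and 0.0588), and that of Spred2 without AML replicate 3 (0.0519) or MPN replicate 1, 2 or 3 (0.0925, 0.121 and 0.119), with a pseudocount of 5 (0.0508), without the filter (0.0780), and under median scaling (0.0539) and quantile normalization (0.0560). Of the list, 4 of 7 tested genes rose in the RPKM table, and 3 of 5 with a filter at 5 TPM. Without the filter 5 of 14 rose, beside 2370 of all 17949 genes tested in that fit. Under median scaling 5 rose and Spred3 fell, and with a term for sex 0 passed, with a list median of 0.65. The summed levels of progenitor and mature cell markers, most of which were also apart between the groups, are given with Cbl. Those of AML replicate 1 are given with the extremes of the 8 genes. The part of these cells in the rise, and in its height in AML replicate 1, was not tested.

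**Figure D4:**
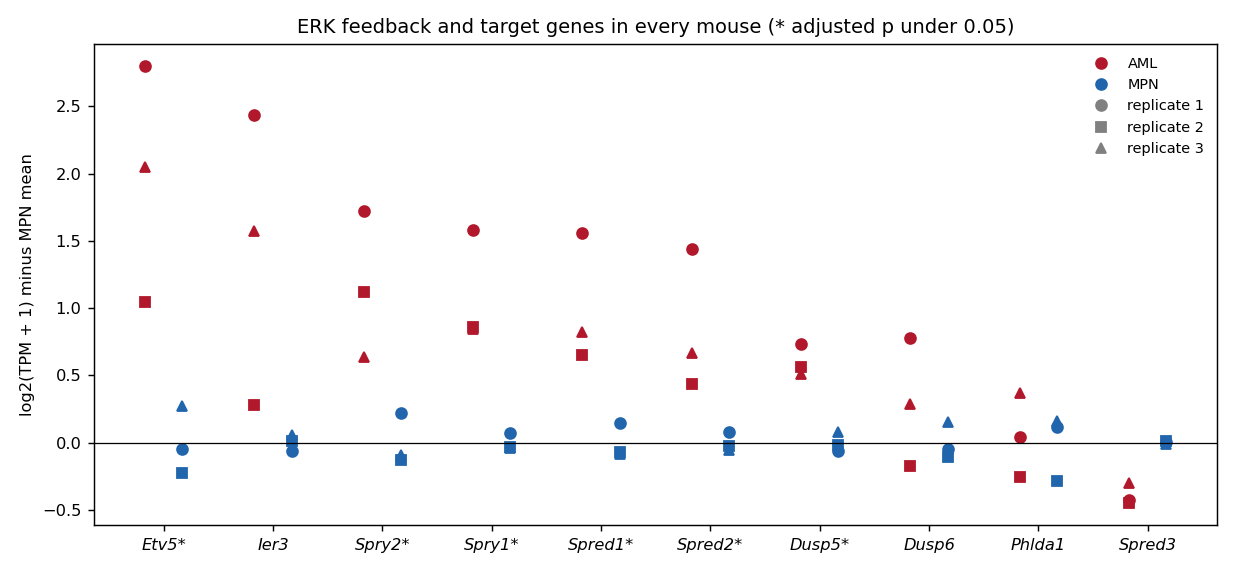
Level of the 10 tested ERK feedback and target genes in each mouse as log2(TPM + 1) minus the mean of the 3 MPN mice (vertical axis), with AML in red left of MPN in blue, shapes for replicates and an asterisk for an adjusted p under 0.05. AML replicate 1 (red circles) is the highest mouse for 8 of the 10 genes. The MPN mice are centred on 0 by the subtraction.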

How the data were processed

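RNA-seq of c-Kit+ splenocytes from 6 mice (3 AML, 3 MPN), 1 library per mouse, was used. Per the labels' protocols, poly-A RNA was made into stranded TruSeq libraries and read in pairs of 75 bases, at a planned depth that the labels give as equal for all samples. TPM values per gene symbol were deposited by the authors as gene-level RSEM output, per the file headers. RPKM values per Ensembl gene were deposited by the authors in a second table, in which 25213 of 25991 rows matched a symbol. TopHat2, RSEM, Bowtie2, mm9 and mm10 are named in the submitters' processing notes without a role, and the build of each table was not given in the sources used here. Since TPM carries no depth, relative depth was taken from RPKM, where low values were within 0.05 of whole multiples of a smallest step. Replicate numbers follow accession order and pair no mice, and nothing beyond the labels says how the animals were related.

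Tested were the 12223 of 24054 genes that reached 1 TPM in 3 or more of 6 libraries, as log2(TPM + 1), a scale that understates changes of low genes, with limma 3.58.1 in R 4.3.3, a mean-variance trend and no covariate. The fit was tested on simulated data. Errors of fold changes are SE, and those of TPM are SD over 3 mice. The 8 genes were also compared by an exact permutation test. Alternatives were pseudocounts of 0.1 and 5, quantile normalization and median scaling, the RPKM table, a filter at 5 TPM or none, no trend, array weights, a term for sex and leaving out each mouse. The 8 genes and the role and marker lists were chosen with earlier results of these data known. Named besides the 8 were, per role list, up to 4 genes past the threshold with the largest absolute fold change and the most abundant gene not past it. Shared sequence was searched in GENCODE M21 transcripts (GRCm38) with blastn 2.17.0. Gene positions are from the same annotation and serve for location only.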

Additional observations from a re-analysis of the deposited data

How the results depend on the processing

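Over all tested genes 3678 passed (2454 higher, 1224 lower in AML, 66.7% higher). With a term for sex 1208 passed, 673 higher and 535 lower (55.7% higher), a fit that rests on AML replicate 3 against 3 MPN mice, taken to vary like the other libraries. Without 1 mouse at a time 2009 to 3705 passed, with 2009, 2277 and 2280 without MPN replicate 2, 1 and 3. Of the 8 genes, 1 passed under each other setting that kept all 6 mice, 0 passed with a term for sex, and 0 to 1 passed without 1 mouse at a time. The log2 fold change of Cbl was -0.33 with a term for sex and -0.60 to -0.40 without 1 mouse at a time, always below 0. That of Braf ran from -0.39 to 0.023, the 0.023 without MPN replicate 1, and the cause was not tested. The other 6 genes kept their direction and did not pass under any alternative run, but their small log2 fold changes moved. Under median scaling Hras, Nras and Ptpn11 were at 0.16, 0.11 and 0.13, and with array weights Ptpn11 and Rasa1 were at 0.053 and 0.17. Of the wider pathway genes, 18 passed, against 31 with array weights, 4 with a term for sex and 4 to 20 without 1 mouse at a time, where the fewest were without MPN replicate 2 (4), 1 (8) and 3 (10). The difference in the Hras share was 1.01 percentage points in TPM, 0.73 in RPKM and 0.26 to 1.67 without 1 mouse at a time. Fits without a mouse and with a term for sex rest on fewer mice, and 3 mice per group limit the precision of each value. No paired analysis was possible because the replicate numbers follow accession order and pair no mice.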
